A study of Mus musculus with 12 samples.

Results

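The genes described here are 34 lysosomal genes of the mouse cortex, which encode glycosidases, sulfatases and other hydrolases, proteins of the lysosomal membrane and subunits of the lysosomal proton pump. They were chosen by gene symbol, leaving out the cysteine and aspartyl cathepsins and the lipid enzymes, and all 34 were found among the 27179 genes of the count table. All 34 passed the filter on low counts, as did 15298 genes in all. By role they comprise 9 genes of glycolipid and glycoprotein breakdown, 9 of glycogen and glycosaminoglycan breakdown, 5 other hydrolases, 7 membrane proteins and 4 proton pump genes.

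RNA was sequenced from cortex in 12 libraries, 4 in each of 3 groups. Knockout mice (KO, labelled Grn-/-) lacked mouse progranulin and were 282 to 308 days old. Humanized mutant mice (MUT, labelled Grn-/-;GRNmEx5) also lacked mouse progranulin, were humanized to carry a pathogenic GRN deletion, and were 272 to 309 days old; human GRN transcripts were not analysed here. Wild-type mice (WT, labelled Grn+/+) were 287 days old in 1 case and 375 days old in 3. WT replicate 1, MUT replicates 1, 2 and 4 and KO replicates 3 and 4 were labelled female. The other libraries were labelled male. The 4 MUT libraries each have a different labelled age. No label says whether libraries of the same group, age and labelled sex are from separate animals. These are WT replicates 2, 3 and 4, and KO replicates 3 and 4. Every p-value here rests on the spread among libraries, which may be technical in part.

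Lysosomes break down sugars, proteins and lipids in an acidic lumen. Most of their soluble hydrolases are tagged with mannose 6-phosphate in the Golgi and carried to the organelle by receptors, membrane glycoproteins line it, and a vacuolar ATPase pumps protons into it. Progranulin is delivered to lysosomes, and its complete loss in humans causes a neuronal ceroid lipofuscinosis, a lysosomal storage disease. Many lysosomal genes are targets of the transcription factor TFEB, which binds an extended E-box called the CLEAR element near their start sites. The question here was whether these genes differed in transcript level where mouse Grn was lost, with or without the human allele.

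Library totals ranged from 16381221 to 20782195 counts, and values are given as CPM, with library sizes scaled by TMM. Fold changes come from a fit with terms for group and labelled sex, and can differ in sign from the CPM means. Grn measured 12.9, 10.8, 13.4 and 14.0 CPM in KO, 11.5, 13.8, 13.3 and 15.3 CPM in MUT, and 57.2, 59.9, 57.6 and 57.0 CPM in WT, so every null library lay below every WT library. Its log2 fold change was -2.20 in KO (edgeR adjusted p = 4.78e-08) and -2.15 in MUT (adjusted p = 6.73e-08). Sex-linked transcripts ran against the sex labels: Xist lay between 0.0529 and 1.05 CPM in the 6 libraries labelled female and between 464 and 678 CPM in the 6 labelled male. Choroid plexus markers were high in KO replicate 3, MUT replicate 1 and WT replicate 4, where transthyretin (Ttr) measured 1839, 1283 and 598 CPM, against at most 42.8 CPM elsewhere. The striatal marker Ppp1r1b measured 68.1, 76.1, 116 and 68.4 CPM in KO, 70.4, 72.5, 59.7 and 65.7 CPM in MUT, and 63.3, 155, 253 and 444 CPM in WT, highest in the 3 WT libraries of 375 days. All 12 markers of excitatory cortical neurons were detected, summing to 6230 to 7070 CPM in KO, 5800 to 7060 CPM in MUT and 6820 to 8790 CPM in WT.

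Several of these genes share a promoter feature that was not used to choose them. Many lysosomal genes are known TFEB targets, so its share is not independent of the choice of lysosomal genes. Other lysosomal lists were not searched for it. RefSeq promoters (GRCm38.p6, 250 bases before to 50 after a start site) were matched by gene ID for 29 of the 34 genes. The E-box CACGTG, which reads the same on both strands, was found in 13 of the 29 genes (44.8%), beside 11.3% of the 11792 tested genes with a promoter. TCACGTGA, which contains it, was found in 7 of the 29 (24.1%), beside 2.03% of tested genes. The same with G before it and C after it was found in 1 of the 29, Cln3 (3.45%, beside 0.704%). Such a match is a stretch of letters, not a measured binding site. The 5 genes with no entry were Galns, Plbd2, Hgsnat, Laptm4b and Atp6v1h.

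The promoters printed here show the motif where it is repeated or extended (Ctsa, Dpp7, Cln3, Lamp1), and Ids is a gene described below without a match. Capitals mark CACGTG and its extensions.
Ctsa, chr2:164833523-164833822, plus strand: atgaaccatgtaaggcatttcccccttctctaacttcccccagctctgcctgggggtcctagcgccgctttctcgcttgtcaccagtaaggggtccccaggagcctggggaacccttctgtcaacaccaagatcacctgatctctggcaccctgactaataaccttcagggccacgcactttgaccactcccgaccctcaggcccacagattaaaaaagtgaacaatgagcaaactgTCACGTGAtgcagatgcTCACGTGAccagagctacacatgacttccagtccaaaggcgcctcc
Dpp7, chr2:25356283-25356582, minus strand: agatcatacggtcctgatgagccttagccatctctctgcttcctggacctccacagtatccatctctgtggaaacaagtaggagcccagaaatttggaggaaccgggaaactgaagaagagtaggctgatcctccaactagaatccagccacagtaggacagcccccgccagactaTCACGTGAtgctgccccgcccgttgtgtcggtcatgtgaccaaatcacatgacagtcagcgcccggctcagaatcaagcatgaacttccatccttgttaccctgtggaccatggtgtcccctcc
Cln3, chr7:126583187-126583486, minus strand: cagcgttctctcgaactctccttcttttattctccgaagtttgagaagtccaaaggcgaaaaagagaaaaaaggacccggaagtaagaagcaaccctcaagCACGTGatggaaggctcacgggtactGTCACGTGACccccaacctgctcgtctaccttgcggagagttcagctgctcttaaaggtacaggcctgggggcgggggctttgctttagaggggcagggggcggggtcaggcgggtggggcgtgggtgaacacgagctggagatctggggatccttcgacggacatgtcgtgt
Lamp1, chr8:13158911-13159210, plus strand: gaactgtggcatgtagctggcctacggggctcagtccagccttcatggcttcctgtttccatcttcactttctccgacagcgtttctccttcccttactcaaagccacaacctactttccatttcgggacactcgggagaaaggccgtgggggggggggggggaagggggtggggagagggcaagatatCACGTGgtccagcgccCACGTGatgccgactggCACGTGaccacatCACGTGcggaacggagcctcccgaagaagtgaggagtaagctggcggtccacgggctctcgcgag
Ids, chrX:70365036-70365335, minus strand: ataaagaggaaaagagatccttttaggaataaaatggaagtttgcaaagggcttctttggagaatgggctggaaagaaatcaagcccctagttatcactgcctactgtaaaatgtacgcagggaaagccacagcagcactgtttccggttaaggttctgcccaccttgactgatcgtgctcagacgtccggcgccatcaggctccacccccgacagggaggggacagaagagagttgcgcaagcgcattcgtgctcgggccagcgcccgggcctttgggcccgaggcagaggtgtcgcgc
In the promoter printed, Ctsa carries TCACGTGA on both sides of the start site. The E-box begins 12 bases before that site and at base 6 after it, counting the start as base 1. Another listed Ctsa promoter (chr2:164832622-164832921), which spans the first base of the gene, has 0 matches to CACGTG. Another listed Cln3 promoter (chr7:126585768-126586067) also has 0. In Lamp1, 4 copies of CACGTG begin between 61 and 15 bases before the start site. Mcoln1, Gla and Cln3 hold 2 copies each in a listed promoter, and Arsa, Atp6v0d1, Atp6v1a, Dpp7, Gaa, Glb1, Naglu and Sgsh hold 1. The 13 genes with CACGTG had a median log2 fold change of 0.080 in KO and 0.021 in MUT against WT, and the 16 without it had 0.038 in KO and 0.053 in MUT.

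All 34 genes were detected in every library. Per length (CPM per kilobase of exon), the proton pump genes Atp6ap1 (156), Atp6v1a (155) and Atp6v0d1 (147) had the highest levels, followed by the membrane glycoprotein Lamp1 (132) and the iduronate sulfatase Ids (108). The lowest were Naglu (3.30), Galns (3.10) and Sgsh (1.72), all of glycosaminoglycan breakdown. Above 10 CPM per kilobase lay 25 of the 34 genes. Of the 33 neighbouring pairs in this order, 27 overlapped in their ranges over the 12 libraries. Among the pairs that did not overlap, Laptm4a (69.0 to 87.8 CPM per kilobase) lay above Laptm4b (39.8 to 49.4), and Galns (2.58 to 3.71) above Sgsh (1.47 to 1.99).

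**Figure D1:**
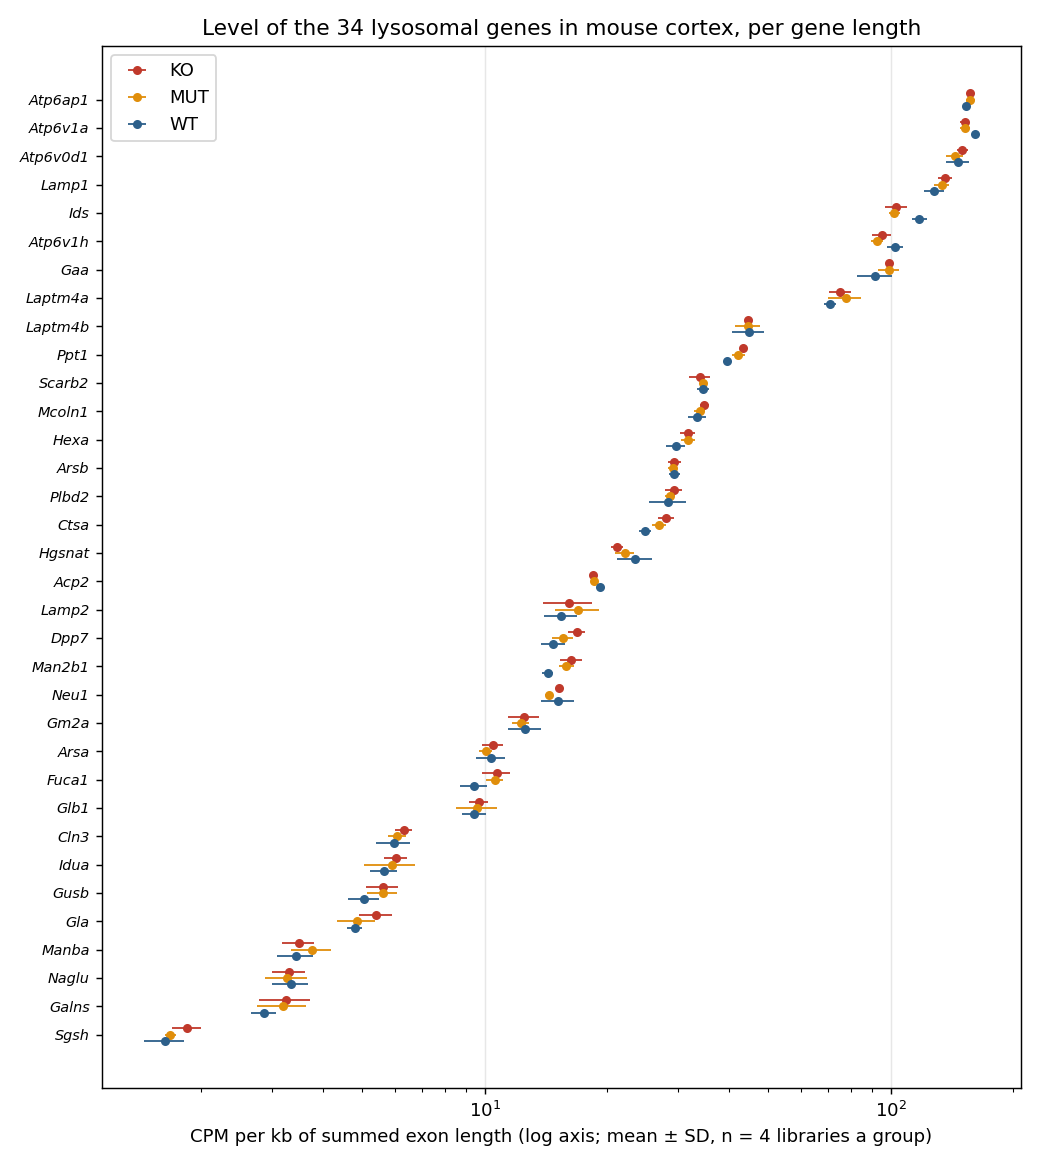
Level of each of the 34 genes in CPM per kilobase of exon on a log axis, as mean and SD over 4 libraries of KO, MUT and WT. The groups lie close together at each gene, while the genes range between 1.72 and 156 CPM per kilobase.

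Levels varied little between libraries. The highest of the 12 libraries was less than 1.5 times the lowest for all 34 genes. The SD of log2 CPM over the 12 libraries had a median of 0.099 over the 34 genes, beside 0.11 over the 10741 tested genes in the same CPM range. Atp6ap1, an accessory subunit of the pump, was the steadiest (SD of log2 CPM 0.029), and Galns, the sulfatase of keratan and chondroitin sulfate, the most variable (0.18).

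In KO against WT, 0 of the 34 genes passed an edgeR adjusted p of 0.05 over all tested genes, where 0.490% of the 15298 genes did. At an unadjusted p below 0.05 there were 7 (20.6%), beside 17.6% of all genes. Of these, 6 were above 0 (Ctsa, Dpp7, Fuca1, Hexa, Man2b1 and Ppt1, beside 7.92% of all genes) and 1 below (Ids, beside 9.71%). DESeq2 called 3 genes (Ctsa, Man2b1 and Ids; 8.82%), where it called 647 of all genes (4.69% of those with an adjusted p), and limma-voom called 0. The log2 fold changes ran between -0.18 and 0.19, with 25 above 0 (73.5%, beside 51.3% of all genes). Their median was 0.051, beside 0.0047 over all genes. The 95% intervals of all 34 lay within a 1.5-fold change in either direction, between -0.29 and 0.45 on the log2 scale.

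In MUT against WT, 0 of the 34 passed, where 0.0131% of genes did. At an unadjusted p below 0.05 there were 5 (14.7%), beside 10.9% of all genes. Above 0 were 3 of them (Ctsa, Hexa and Man2b1, beside 4.84% of all genes) and below it 2 (Atp6v1h and Ids, beside 6.02%). DESeq2 and limma-voom called 0. The fold change was above 0 in 24 genes (70.6%, beside 51.0% of all genes), with a median of 0.022 beside 0.0036, and all 34 intervals again lay within 1.5-fold. This comparison uses the same WT libraries as the one for KO. With KO and MUT averaged, 0 of the 34 passed against WT, where 0.150% of genes did, and 7 were at an unadjusted p below 0.05, beside 16.5% of all genes. The median was 0.036, DESeq2 called 2 (Ids and Ctsa; 5.88%) where it called 522 of all genes (3.63%), and limma-voom called 0. EdgeR with no sex term called 2 for the average (Ids and Man2b1), where it called 550 of all genes (3.60%).

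The medians moved with WT replicate 1, which was the lowest of all 12 libraries for 14 of the 34 genes (41.2%), beside 8.37% of all genes. Leaving that library out kept only the 3 WT libraries of 375 days, where genotype, age and striatal markers cannot be told apart. Without WT replicate 1 the median log2 fold change was 0.0040 in KO, -0.030 in MUT and -0.023 in their average. Above 0 were 18, 12 and 14 of the 34 genes. The sign turned in 7 genes in KO, 12 in MUT and 11 for the average. By role, leaving it out gave 6 of 9 above 0 in KO and 4 of 9 in MUT for glycolipid and glycoprotein breakdown (medians 0.081 and -0.028). For glycogen and glycosaminoglycan breakdown it gave 3 of 9 in KO and 3 of 9 in MUT (medians -0.018 and -0.049). For other hydrolases it gave 4 of 5 in KO and 3 of 5 in MUT, and for the proton pump 2 of 4 in KO and 1 of 4 in MUT. Among animals under 310 days, where it is the only WT library and is assumed to vary like the others, the medians were 0.15, 0.099 and 0.13, and 0 genes were called. WT replicate 1 was also lowest in the mean of 16 microglial markers, though not in every marker. The mean was -0.23 there on a centred log2 scale, against -0.098 to 0.10 in the other 11 libraries. Summed over the 16, none of which was at 0, they measured 518 to 552 CPM in KO, 520 to 555 CPM in MUT and 455 to 524 CPM in WT. By edgeR 3 of the 16 were called higher in KO against WT (Ctss, Tyrobp and C1qa), where 0.490% of all genes were called. The fold change was above 0 in 11 of the 16 and below it in 5. In MUT 0 were called, and for the average 2 were (Ctss and Tyrobp), where 0.150% of all genes were. The 14 oligodendrocyte markers, none at 0, summed to 4690 to 5620 CPM in KO, 4080 to 4860 CPM in MUT and 3400 to 4800 CPM in WT. The part of either cell type in the lysosomal values was not tested, and in whole cortex fewer cells of a type and less RNA per cell cannot be told apart.

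**Figure D2:**
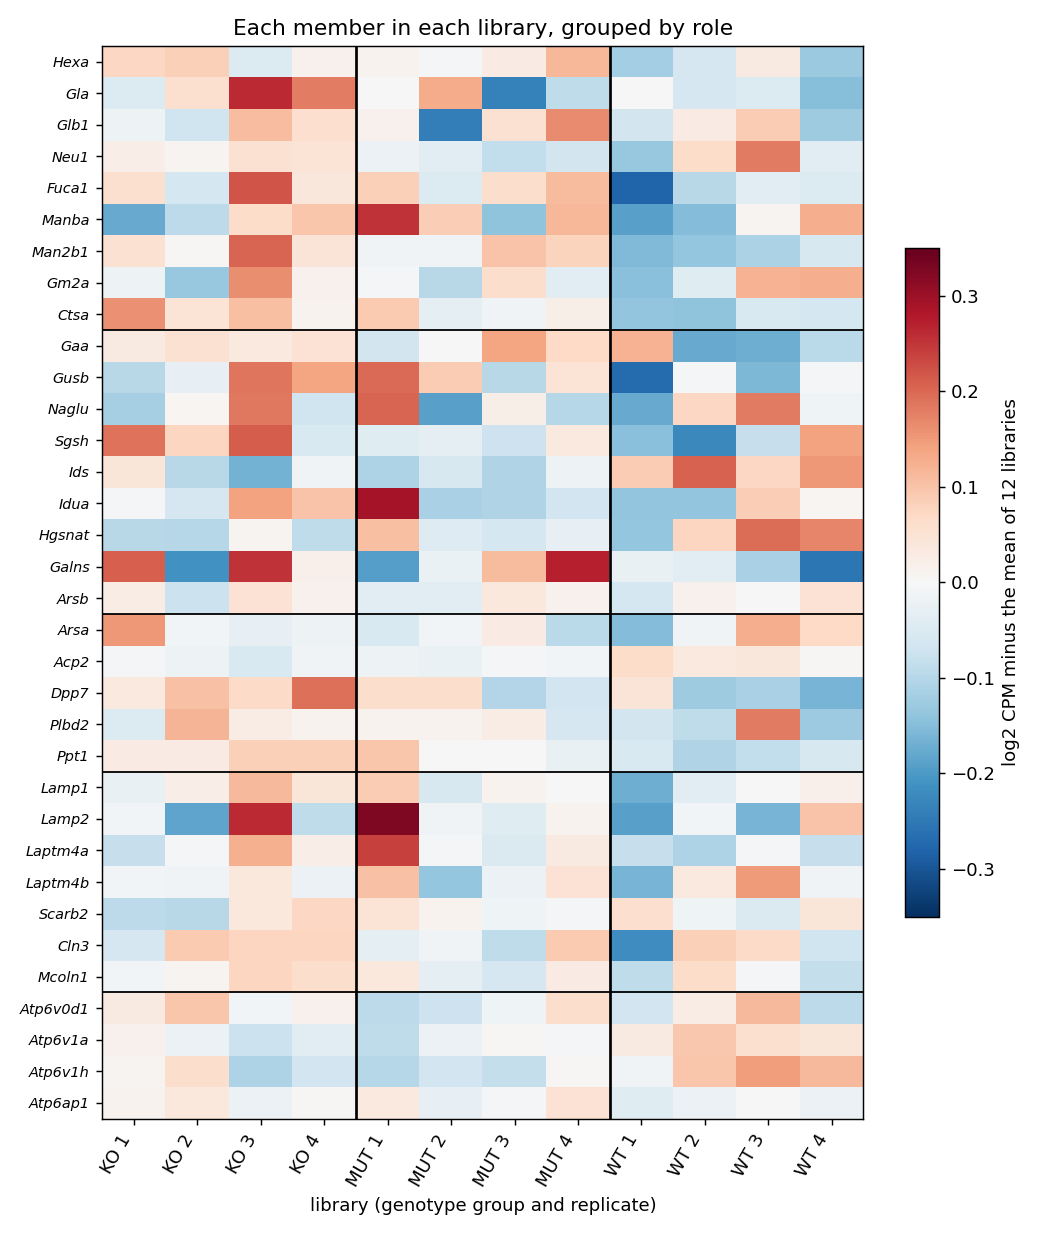
Each of the 34 genes in each library as log2 CPM minus the gene's mean over the 12 libraries, with genes grouped by role and libraries ordered KO, MUT and WT. WT replicate 1 is the lowest library for 14 genes, and KO replicate 3 and MUT replicate 1 hold the high values of Lamp2.

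By overlap, 6 of the 34 genes (17.6%) had all 8 null libraries on 1 side of all 4 WT libraries, beside 3.01% of all tested genes. Ctsa, Man2b1 and Ppt1 had higher values in the null libraries, and Ids, Acp2 and Atp6v1a had lower values. None of the 6 passed the edgeR threshold. Genotype, age and striatal markers cannot be told apart in the 3 WT libraries of 375 days. These 3 were all labelled male and WT replicate 1 female, so within WT labelled sex cannot be told apart from age either.

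**Figure D3:**
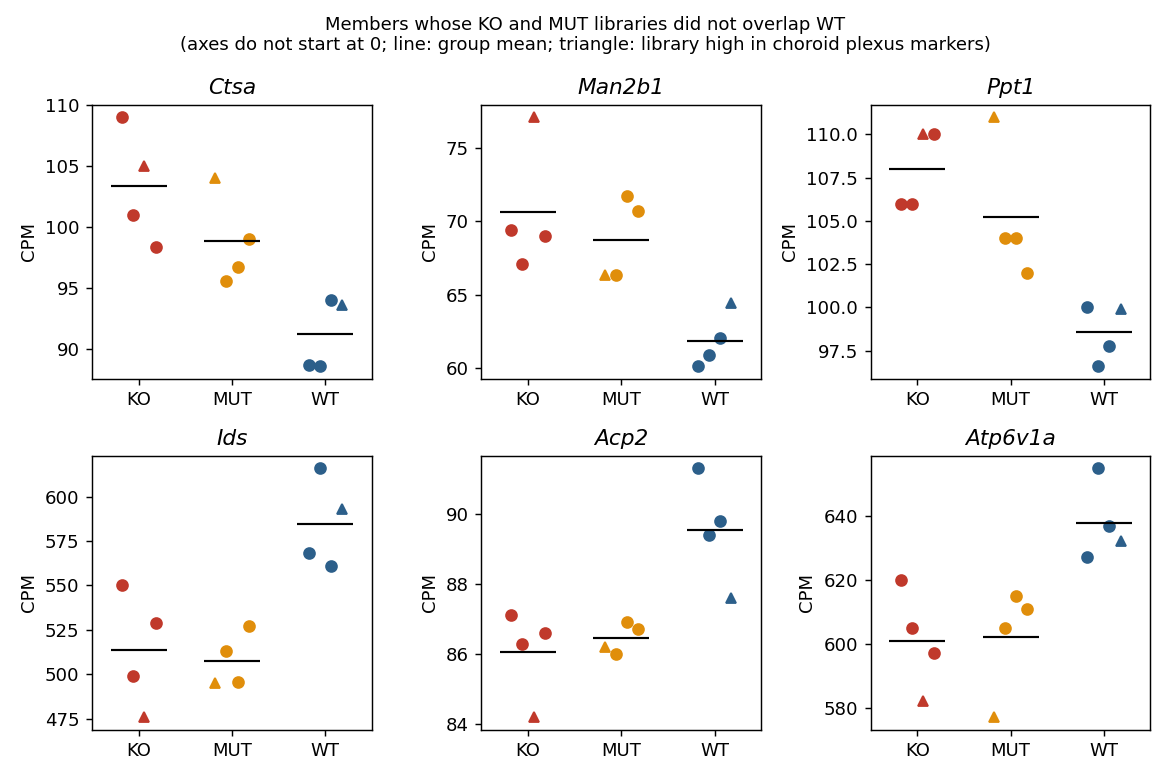
CPM in each library for the 6 genes whose KO and MUT libraries all lie on 1 side of the WT libraries; lines are group means and triangles mark libraries high in choroid plexus markers. Ctsa, Man2b1 and Ppt1 lie higher and Ids, Acp2 and Atp6v1a lower in the null libraries, on axes that do not start at 0.

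Among the genes of glycolipid and glycoprotein breakdown, 7 of 9 had a log2 fold change above 0 in KO (median 0.11) and 6 of 9 in MUT (median 0.064). Ctsa (Entrez 19025; chromosome 2, 164832873 to 164841032, plus strand, mm10) encodes the protective protein that holds beta-galactosidase and neuraminidase in a stable complex. It measured 109, 101, 105 and 98.4 CPM in KO, 104, 95.6, 96.7 and 99.0 CPM in MUT, and 88.7, 88.6, 94.0 and 93.6 CPM in WT. Every null library lay above every WT library. The log2 fold change was 0.18 in KO (SE 0.047, 95% interval 0.083 to 0.28, edgeR adjusted p = 0.0832), 0.13 (SE 0.050, adjusted p = 0.425) in MUT and 0.15 (SE 0.043, adjusted p = 0.123) for their average. DESeq2 gave an adjusted p of 0.0224 in KO and 0.0440 for the average. Without the 3 libraries high in choroid plexus markers the KO value was 0.18 (edgeR adjusted p = 0.188). Ctsa shares 13.5% of its exon length with Pltp and 8.82% with Neurl2 on the opposite strand, and its counts are uncertain there because no source used here gives the strand setting.

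Man2b1 (Entrez 17159; chromosome 8, 85083269 to 85098739, plus strand) is the lysosomal alpha-mannosidase whose loss causes alpha-mannosidosis. It measured 69.4, 67.1, 77.1 and 69.0 CPM in KO, 66.3, 66.3, 71.7 and 70.7 CPM in MUT, and 60.1, 60.9, 62.0 and 64.4 CPM in WT. All 8 null libraries were above the 4 WT libraries, and KO replicate 3 was the highest. On the log2 scale the fold change was 0.19 (SE 0.053, edgeR adjusted p = 0.0995) in KO, 0.15 (SE 0.057, adjusted p = 0.409) in MUT and 0.17 (SE 0.049, adjusted p = 0.129) for their average. DESeq2 gave an adjusted p of 0.0450 in KO, and edgeR with no sex term gave 0.0471 for the average.

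Fuca1, the lysosomal alpha-fucosidase, measured 26.8, 24.7, 30.0 and 26.5 CPM in KO, 27.3, 24.9, 26.9 and 27.8 CPM in MUT, and 21.2, 24.1, 25.1 and 24.9 CPM in WT. WT replicate 1 was the lowest library, and the groups overlapped elsewhere. Its log2 fold change was 0.18 (SE 0.076, edgeR adjusted p = 0.234) in KO, 0.17 (SE 0.082, adjusted p = 0.465) in MUT and 0.18 (SE 0.070, adjusted p = 0.232) for their average. Hexa, the alpha subunit of the hexosaminidase that degrades GM2 ganglioside, measured 60.7, 61.1, 55.8 and 58.3 CPM in KO, 58.2, 57.4, 58.8 and 62.5 CPM in MUT, and 53.1, 55.4, 59.0 and 52.7 CPM in WT. WT replicate 3 overlapped the null libraries. In the fit, the log2 fold change was 0.11 (SE 0.049, edgeR adjusted p = 0.262) in KO, 0.13 (SE 0.053, adjusted p = 0.421) in MUT and 0.12 (SE 0.045, adjusted p = 0.203) for their average. Hexa shares 19.0% of its exon length with an unnamed gene on the opposite strand.

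The activator Gm2a, which presents GM2 to hexosaminidase, averaged 53.3 ± 4.56 CPM in KO, 52.2 ± 2.43 in MUT and 53.6 ± 4.87 in WT (SD, n = 4), a difference smaller than the spread. Glb1 is the beta-galactosidase and Neu1 the neuraminidase of the complex with Ctsa. Glb1 averaged 22.8 ± 1.24 CPM in KO, 22.6 ± 2.59 in MUT and 22.2 ± 1.48 in WT, and Neu1 averaged 58.8 ± 0.825 CPM in KO, 55.4 ± 1.12 in MUT and 58.4 ± 5.45 in WT (SD, n = 4). In both genes the means of both null groups lay within 1 SD of the WT mean. Manba, the beta-mannosidase, had a log2 fold change of -0.012 (SE 0.10, edgeR adjusted p = 0.965) in KO and 0.064 (SE 0.11, adjusted p = 0.858) in MUT. Glb1 shares 6.42% of its exon length with Tmppe on the same strand.

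Among the genes of glycogen and glycosaminoglycan breakdown, 6 of 9 had a log2 fold change above 0 in KO (median 0.069) and 6 of 9 in MUT (median 0.018). Ids (Entrez 15931; chromosome X, 70343069 to 70365085, minus strand), the enzyme lacking in Hunter syndrome, lay furthest below 0 in both null groups. It measured 549.9, 499, 476 and 529 CPM in KO, 495, 513, 496 and 527 CPM in MUT, and 568, 616, 562 and 593 CPM in WT. Every null library lay below every WT library. The log2 fold change was -0.18 in KO (SE 0.052, 95% interval -0.29 to -0.067, edgeR adjusted p = 0.113), -0.19 (SE 0.056, adjusted p = 0.393) in MUT and -0.18 (SE 0.047, adjusted p = 0.109) for their average. DESeq2 gave an adjusted p of 0.0305 in KO and 0.0133 for the average, and edgeR with no sex term gave 0.0318 for the average. The Ids promoter printed above holds no CACGTG.

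Gaa and Hgsnat passed the edgeR threshold in KO, and Gaa in MUT, once WT replicate 1 was left out. That fit kept as WT only the 3 libraries of 375 days, where genotype, age and striatal markers cannot be told apart. In that fit the calls over all genes numbered 1620 of 15480 in KO (10.5%, beside 5.88% of the 34) and 1030 in MUT (6.65%, beside 2.94%), so the share of the 34 genes called was below that of all genes in both. For the average both genes were called, where 10.9% of all genes were. Gaa (Entrez 14387; chromosome 11, 119267967 to 119285698, plus strand), the acid glucosidase of lysosomal glycogen lacking in Pompe disease, measured 374, 380.0, 375 and 379 CPM in KO, 350.1, 366, 403 and 384 CPM in MUT, and 398, 324, 325 and 343 CPM in WT. WT replicate 1 lay above the other WT libraries and above all KO libraries. On the log2 scale the fold change was 0.11 (SE 0.066, edgeR adjusted p = 0.421) in KO and 0.093 (SE 0.069, adjusted p = 0.644) in MUT. Without WT replicate 1 it was 0.22 in KO (edgeR adjusted p = 0.0235) and 0.23 in MUT (adjusted p = 0.0399). Under 310 days, with that library alone as WT, it was -0.11 in KO (adjusted p = 0.721) and -0.10 in MUT (adjusted p = 0.907).

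Hgsnat (Entrez 52120; chromosome 8, 25944459 to 25976744, minus strand), the membrane acetyltransferase of heparan sulfate breakdown, measured 55.7, 55.6, 59.9 and 56.0 CPM in KO, 64.0, 57.7, 57.1 and 58.4 CPM in MUT, and 54.2, 62.7, 68.2 and 67.1 CPM in WT. WT replicate 1 was the lowest of the 12 libraries and the other WT libraries were among the highest. Its log2 fold change was -0.14 (SE 0.071, edgeR adjusted p = 0.329) in KO and -0.067 (SE 0.076, adjusted p = 0.773) in MUT. Without WT replicate 1 it was -0.25 in KO (edgeR adjusted p = 0.0178) and -0.20 in MUT (adjusted p = 0.0822). Under 310 days it was 0.10 in KO (adjusted p = 0.754).

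**Figure D4:**
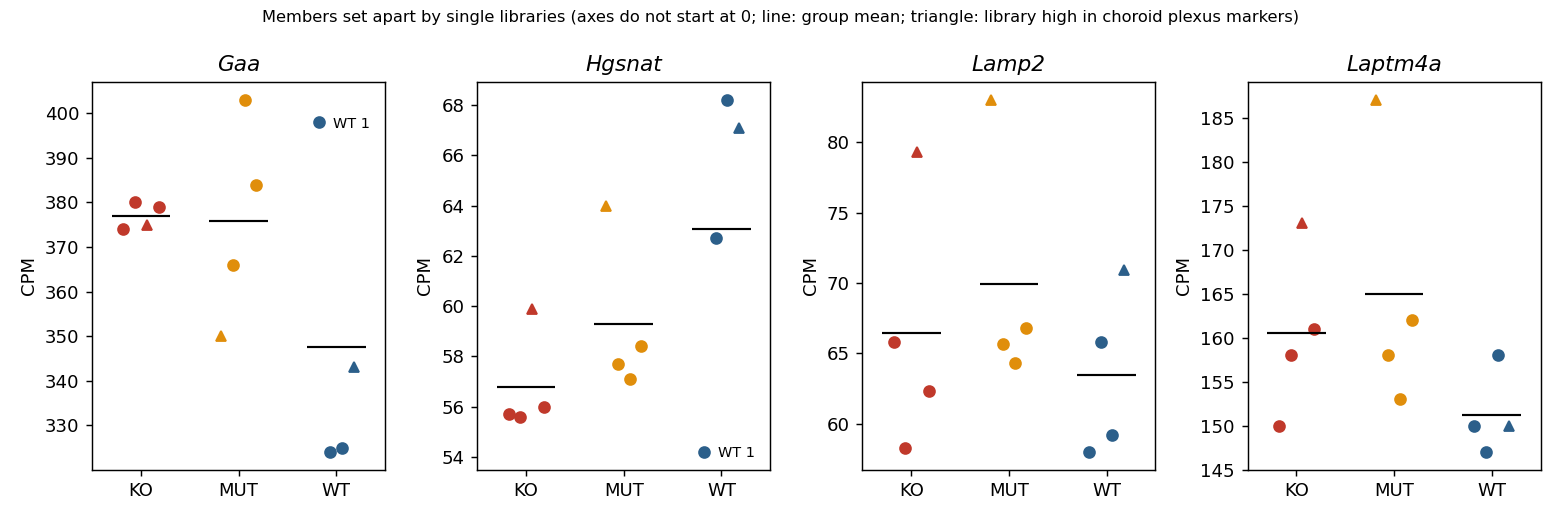
CPM in each library for 4 genes that single libraries set apart; lines are group means and triangles mark libraries high in choroid plexus markers. WT replicate 1 lies at 398 CPM in Gaa and 54.2 CPM in Hgsnat, away from the other WT libraries, and the triangles are the highest of each group in Lamp2.

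The other enzymes of this role were Gusb (beta-glucuronidase), Naglu (the heparan sulfate glucosaminidase), Sgsh (the heparan N-sulfatase), Idua (alpha-iduronidase), Galns and Arsb (arylsulfatase B, of dermatan and chondroitin sulfate). Their log2 fold changes were -0.0064 to 0.19 in KO and -0.0098 to 0.13 in MUT, and none was at an unadjusted p below 0.05. Gusb averaged 13.8 ± 1.25 CPM in KO, 13.8 ± 1.18 in MUT and 12.3 ± 1.10 in WT (SD, n = 4). Idua averaged 20.4 ± 1.3 CPM in KO, 19.9 ± 2.86 in MUT and 19.1 ± 1.44 in WT, and Galns averaged 8.40 ± 1.19 CPM in KO, 8.25 ± 1.12 in MUT and 7.40 ± 0.516 in WT (SD, n = 4). In all 3 the libraries of the null groups overlapped those of WT. Sgsh measured 8.46, 7.81, 8.59 and 7.15 CPM in KO, 7.21, 7.25, 7.05 and 7.60 CPM in MUT, and 6.71, 6.35, 7.02 and 8.18 CPM in WT. The groups overlapped. In the fit, the log2 fold change was 0.19 (SE 0.10, edgeR adjusted p = 0.371) in KO and 0.059 (SE 0.11, adjusted p = 0.873) in MUT, and Sgsh shares 22.1% of its exon length with Card14 on the opposite strand. Arsb averaged 117 ± 4.42 CPM in KO, 116 ± 2.97 in MUT and 117 ± 3.59 in WT (SD, n = 4), a difference smaller than the spread. Naglu, which lies 1.35 Mb from Grn on chromosome 11, had log2 fold changes of -0.0064 in KO (95% interval -0.26 to 0.25) and -0.0098 in MUT (-0.28 to 0.27).

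Of the other hydrolases, 4 of 5 had a log2 fold change above 0 in KO and 4 of 5 in MUT. Ppt1 (Entrez 19063; chromosome 4, 122836227 to 122859175, plus strand), the palmitoyl-protein thioesterase lacking in infantile ceroid lipofuscinosis, measured 106, 106, 109.7 and 109.7 CPM in KO, 111, 104, 104 and 102 CPM in MUT, and 100.3, 96.6, 97.8 and 99.9 CPM in WT. The null libraries lay above all WT libraries. The log2 fold change was 0.12 (SE 0.038, edgeR adjusted p = 0.137) in KO, 0.075 (SE 0.041, adjusted p = 0.524) in MUT and 0.097 (SE 0.035, adjusted p = 0.195) for their average. Dpp7, a dipeptidyl peptidase whose promoter is printed above, measured 26.6, 27.9, 27.2 and 29.7 CPM in KO, 27.1, 27.1, 24.2 and 24.8 CPM in MUT, and 26.8, 23.8, 24.0 and 23.2 CPM in WT. WT replicate 1 overlapped the null libraries and the other WT libraries lay below all of them. On the log2 scale the fold change was 0.16 (SE 0.056, edgeR adjusted p = 0.163) in KO and 0.022 (SE 0.060, adjusted p = 0.914) in MUT.

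Acp2, the lysosomal acid phosphatase, measured 87.1, 86.3, 84.2 and 86.6 CPM in KO, 86.2, 86.0, 86.9 and 86.7 CPM in MUT, and 91.3, 89.4, 89.8 and 87.6 CPM in WT. All 8 null libraries were below the 4 WT libraries, by a small margin. Its log2 fold change was -0.057 (SE 0.035, edgeR adjusted p = 0.419) in KO and -0.051 (SE 0.037, adjusted p = 0.640) in MUT, and Acp2 shares 13.9% of its exon length with Ddb2 on the opposite strand. Arsa, the arylsulfatase of sulfatide breakdown, averaged 36.6 ± 2.23 CPM in KO, 35.2 ± 1.3 in MUT and 36.3 ± 2.99 in WT (SD, n = 4), and shares 20.3% of its exon length with C230037L18Rik on the opposite strand. Plbd2, a phospholipase B-like protein, averaged 105 ± 5.09 CPM in KO, 103 ± 2.85 in MUT and 102 ± 10.5 in WT (SD, n = 4), and overlaps Sds by 13 exon bases on the opposite strand. Neither Arsa nor Plbd2 differed from WT by more than the spread.

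Of the membrane proteins, 6 of 7 had a log2 fold change above 0 in KO (median 0.054) and 6 of 7 in MUT (median 0.031), and none was at an unadjusted p below 0.05. These counts turned on WT replicate 1, the lowest of the 12 libraries for Lamp1, Lamp2, Cln3, Mcoln1 and Laptm4b. With it left out, 3 of 7 were above 0 in KO (median -0.018) and 1 of 7 in MUT (median -0.050). Lamp1, a glycoprotein of the limiting membrane, averaged 307 ± 12.4 CPM in KO, 301 ± 12.4 in MUT and 289 ± 16.6 in WT (SD, n = 4), with log2 fold changes of 0.091 (SE 0.053, edgeR adjusted p = 0.402) in KO and 0.067 (SE 0.057, adjusted p = 0.683) in MUT. Cln3, the membrane protein of juvenile ceroid lipofuscinosis, averaged 16.6 ± 0.768 CPM in KO, 15.97 ± 0.848 in MUT and 15.7 ± 1.49 in WT, and Mcoln1, a lysosomal cation channel, averaged 69.7 ± 1.94 CPM in KO, 67.8 ± 2.20 in MUT and 66.8 ± 3.39 in WT (SD, n = 4). Both differed by less than the spread of WT. Scarb2, the receptor that carries glucocerebrosidase to lysosomes, averaged 71.5 ± 4.35 CPM in KO, 72.8 ± 1.41 in MUT and 72.9 ± 2.54 in WT (SD, n = 4). With all libraries it was the only gene of this role with a log2 fold change below 0, at -0.052 in KO and -0.045 in MUT.

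Lamp2 (Entrez 16784; chromosome X, 38405064 to 38456455, minus strand), the other abundant glycoprotein of the membrane, measured 65.8, 58.3, 79.3 and 62.3 CPM in KO, 83.0, 65.7, 64.3 and 66.8 CPM in MUT, and 58.0, 65.8, 59.2 and 70.9 CPM in WT. Its highest library in each group was the one high in choroid plexus markers. Of the 34 genes, 3 showed this (Gusb, Lamp1 and Lamp2; 8.82%), beside 6.30% of all tested genes. The log2 fold change of Lamp2 was 0.042 in KO (95% interval -0.20 to 0.29) and 0.10 in MUT (-0.16 to 0.36), and without those 3 libraries it was 0.027 in KO and 0.11 in MUT. The part of choroid plexus tissue in it was not tested. Laptm4a, a late endosomal membrane protein, measured 149.7, 158, 173 and 161 CPM in KO, 187, 158, 153 and 162 CPM in MUT, and 149.8, 147, 158 and 149.8 CPM in WT. Its highest libraries were MUT replicate 1 and KO replicate 3, while Laptm4b, its paralog, averaged 84.5 ± 1.5 CPM in KO, 84.6 ± 5.94 in MUT and 84.9 ± 7.54 in WT (SD, n = 4).

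The proton pump genes lay on both sides of 0, with 2 of 4 above it in KO (median -0.021) and 2 of 4 in MUT (median -0.030). Atp6v1a (Entrez 11964; chromosome 16, 44085404 to 44139019, minus strand), the catalytic subunit of the peripheral V1 part, measured 619.6, 605, 582 and 597 CPM in KO, 577, 605, 615 and 611 CPM in MUT, and 626, 655, 637 and 632 CPM in WT. The null libraries lay below all WT libraries. In the fit, the log2 fold change was -0.075 (SE 0.037, edgeR adjusted p = 0.316) in KO and -0.061 (SE 0.040, adjusted p = 0.598) in MUT. Atp6v1h, the regulatory H subunit of V1, measured 192, 199, 177 and 182 CPM in KO, 178, 182, 179.6 and 191 CPM in MUT, and 189, 204, 211 and 206 CPM in WT. WT replicate 1 overlapped the null libraries, and the other WT libraries lay above all of them. The log2 fold change was -0.091 (SE 0.044, edgeR adjusted p = 0.311) in KO and -0.11 (SE 0.048, adjusted p = 0.441) in MUT. Atp6v0d1, of the membrane-bound V0 part, averaged 243 ± 7.40 CPM in KO, 233 ± 11.1 in MUT and 237 ± 15.3 in WT (SD, n = 4), with log2 fold changes of 0.049 in KO and 0.00027 in MUT. Atp6ap1 averaged 343 ± 5.57 CPM in KO, 344 ± 8.49 in MUT and 336 ± 3.89 in WT (SD, n = 4), with 0.034 in KO and 0.042 in MUT. Both overlapped WT.

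**Figure D5:**
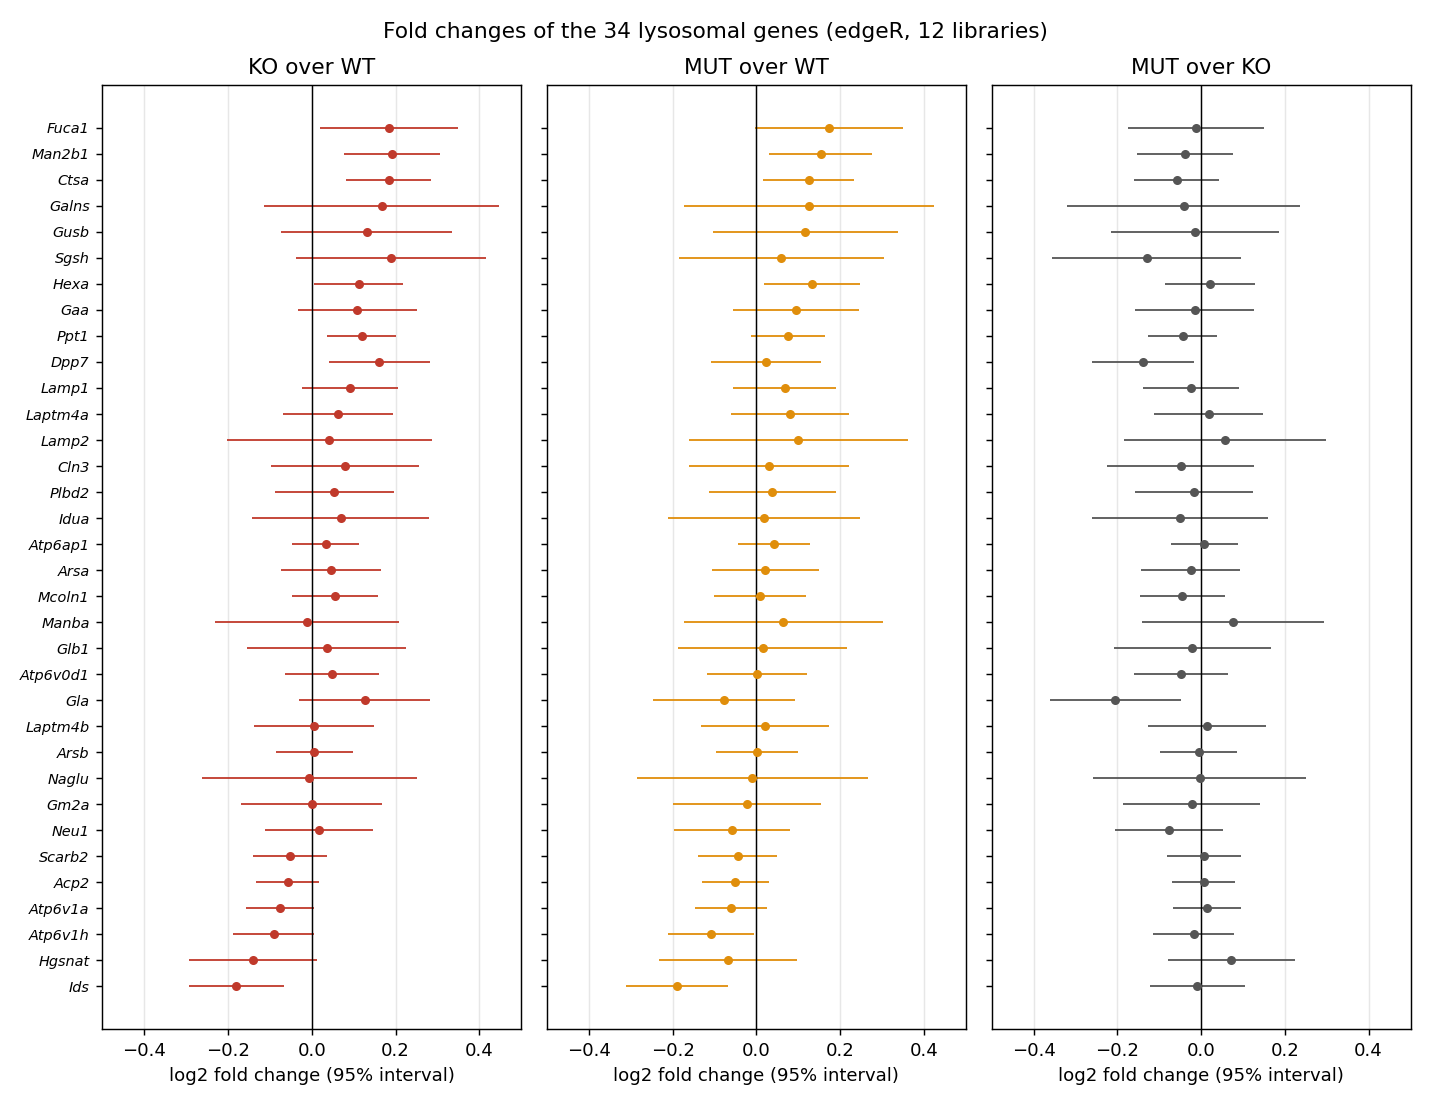
Log2 fold changes with 95% intervals of the 34 genes in KO over WT, MUT over WT and MUT over KO, sorted by the average of KO and MUT over WT. Intervals cover at most 0.45 above 0 in KO over WT, and Ids is the lowest gene in both comparisons with WT, at -0.18 in KO and -0.19 in MUT.

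MUT was set against KO to ask whether these genes differed with the human allele where mouse Grn was lost in both groups. By edgeR 0 of the 34 passed, where 0.00654% of genes did, and DESeq2 and limma-voom called 0. At an unadjusted p below 0.05 there were 2 genes (5.88%), beside 5.67% of all genes. The log2 fold changes ran between -0.20 and 0.076 with a median of -0.017, and all 34 intervals lay within 1.5-fold. Above 0 were 10 of the 34 genes (29.4%), beside 48.2% of all genes. Gla (Entrez 11605; chromosome X, 134588169 to 134601005, minus strand), the alpha-galactosidase lacking in Fabry disease, measured 15.1, 16.5, 12.8 and 14.2 CPM in MUT, against 14.6, 15.7, 18.1 and 17.1 CPM in KO. The groups overlapped. On the log2 scale the fold change was -0.20 (SE 0.072, 95% interval -0.36 to -0.048, edgeR adjusted p = 0.752). Gla measured 15.1, 14.5, 14.6 and 13.6 CPM in WT, with log2 fold changes of 0.13 in KO and -0.078 in MUT against WT. The value for MUT is adjusted for labelled sex, and mean CPM was 14.65 in MUT and 14.47 in WT.

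Dpp7 was the other gene at an unadjusted p below 0.05, with a log2 fold change for MUT over KO of -0.14 (SE 0.056, edgeR adjusted p = 0.870). Neu1 measured 56.6, 55.9, 54.1 and 54.9 CPM in MUT, against 58.3, 57.8, 59.6 and 59.3 CPM in KO. It was the only one of the 34 genes whose MUT and KO libraries did not overlap (2.94%), beside 5.22% of all genes in either direction, and its values were lower in MUT, as in 1.85% of all genes. Its log2 fold change was -0.076 (SE 0.059, edgeR adjusted p = 0.985), while WT libraries ran from 52.4 to 65.1 CPM. Ctsa (-0.058, SE 0.047, adjusted p = 0.987), Sgsh (-0.13, SE 0.10, adjusted p = 0.987) and Ppt1 (-0.044, SE 0.038, adjusted p = 0.988) had the next smallest p-values and overlapped.

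Because 4 of the 34 genes are X-linked (Gla, Ids, Lamp2 and Atp6ap1), the sex term of the model was read as labelled female over labelled male. By edgeR 0 of the 34 passed, where 0.0523% of genes did, and DESeq2 and limma-voom called 0. At an unadjusted p below 0.05 there were 4 genes (11.8%), beside 6.16% of all genes. Gla averaged 16.01 ± 1.46 CPM in libraries labelled female and 14.3 ± 0.974 CPM in libraries labelled male (SD, n = 6), a log2 fold change of 0.19 (SE 0.064, edgeR adjusted p = 0.731). Arsa averaged 34.6 ± 1.3 CPM in libraries labelled female and 37.5 ± 1.81 CPM in libraries labelled male (SD, n = 6), a log2 fold change of -0.13 (SE 0.048, edgeR adjusted p = 0.768). Scarb2 averaged 74.3 ± 1.51 CPM in libraries labelled female and 70.5 ± 2.60 CPM in libraries labelled male (SD, n = 6), a log2 fold change of 0.090 (SE 0.035, edgeR adjusted p = 0.768). Dpp7, also named above for KO and for MUT against KO, averaged 27.1 ± 1.55 CPM in libraries labelled female and 24.9 ± 1.89 CPM in libraries labelled male (SD, n = 6), a log2 fold change of 0.12 (SE 0.049, edgeR adjusted p = 0.799). In each of these 4 genes the libraries labelled female and male overlapped. Ids, Lamp2 and Atp6ap1 had -0.028, 0.077 and -0.014, with intervals that include 0. Since Xist ran opposite to the labels, the sign of these values follows the labels only.

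Other lysosomal genes were counted in lists that leave out the 34. By edgeR 0 passed in any of the 5 comparisons among 9 other glycosidases and sulfatases, 30 other membrane proteins, 16 other pump subunits, 20 genes of enzyme delivery and activation, 18 regulators such as Tfeb and the Ragulator subunits, and 10 lipid enzymes. Their median log2 fold changes in KO against WT were 0.053, 0.036, 0.0066, -0.00073, 0.063 and 0.021 in that order. In MUT against WT they were 0.0081, 0.033, -0.0026, -0.016, -0.0075 and 0.013. Of 12 cathepsins and related proteases, with Lgmn and Tpp1 among them, 1 rose in KO (median of the list 0.14). In MUT against WT 0 passed (median 0.17). In KO 10 of 12 lay above 0, where 51.3% of all genes did. The gene that rose was Ctss, a protease abundant in microglia and 1 of the 16 microglial markers. Ctss measured 66.6, 62.0, 72.7 and 65.2 CPM in KO, 62.2, 63.9, 65.2 and 59.0 CPM in MUT, and 49.0, 50.3, 49.2 and 54.7 CPM in WT. Every null library lay above every WT library, with a log2 fold change of 0.39 in KO (SE 0.060, edgeR adjusted p = 0.0263) and 0.35 for the average of KO and MUT (SE 0.055, adjusted p = 0.0468).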

How the data were processed

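Directional RNA-seq libraries were made from mouse cortex with the NEBNext Ultra II kit that the labels' protocols name. The file the authors deposited holds raw counts, 1 value per gene and library, beside the Entrez ID, position and length of each gene's exons, per the file headers. Per the submitters' processing notes, mm10, R 4.1.2 and DESeq2 1.34.0 were used. Which aligner, counter or strand setting was used is not given in the sources used here. Reads of genes that overlap on opposite strands may therefore be shared.

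All 27179 genes, 1049 of them without a symbol, stayed in the library totals. Genes were filtered with filterByExpr (minimum count 10, minimum total 15), scaled by TMM, and tested by edgeR's robust quasi-likelihood F test (edgeR 4.0.16, R 4.3.3) with terms for group and labelled sex over all 12 libraries (8 residual degrees of freedom, common biological coefficient of variation 0.101). P-values were adjusted by Benjamini-Hochberg over all 15298 tested genes, with a threshold of 0.05. CPM and CPM per kilobase were computed from the deposited counts and exon lengths. The centred log2 level of a list is the mean over its genes of log2 CPM (prior count 2) minus each gene's mean. Alternatives used limma 3.58.1, DESeq2 1.42.0, other scalings, filters, covariates and subsets of libraries. The test was checked on simulated counts.

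The 34 genes, the gene lists and the naming rule were chosen with earlier results of these data known. The rule gives full values for any member called and for the 6 members with the smallest p in each comparison (3 for labelled sex). In chi-square tests of the counts of 66 pairs of libraries, chi-square over its degrees of freedom was at least 3.62, so no pair agreed within sampling noise. Replicate numbers were not used as pairs.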

Additional observations from a re-analysis of the deposited data

Results flagged for a closer look

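In 102 groups of 4 libraries (34 genes in 3 genotype groups), 5 held a library whose gap to its nearest neighbour was more than 0.829 of the group's range, and chance marks about 1 group in 20. Idua measured 24.1 CPM in MUT replicate 1, against 18.2 to 18.8 CPM in the other MUT libraries. Lamp2 measured 83.0 CPM in MUT replicate 1, against 64.3 to 66.8 CPM in the other MUT libraries. Hgsnat measured 59.9 CPM in KO replicate 3, against 55.6 to 56.0 CPM in the other KO libraries. MUT replicate 1 and KO replicate 3 are libraries high in choroid plexus markers, whose part in these 3 values was not tested. Arsa measured 40.0 CPM in KO replicate 1, against 35.3 to 35.8 CPM in the other KO libraries. Cln3 was lowest in KO replicate 1, at 15.4 CPM against 16.9 to 17.1 CPM in the other KO libraries.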

How the results depend on the processing

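Over 4488 values of the 34 genes under 27 alternatives, 12 gained a call (in Ctsa, Man2b1, Ids, Gaa and Hgsnat). The edgeR fit with terms for group and labelled sex over all 12 libraries called none, so none could lose a call. Without WT replicate 1 the sign turned in 7 of the 34 genes in KO, 12 in MUT, 11 for the average, 2 for MUT against KO and 11 for labelled sex. The number of the 34 genes called was 3 in KO against WT and 2 for the average of KO and MUT with DESeq2, and 2 for the average with no sex term. Leaving out 1 library at a time gave 0 to 2 in KO, 0 to 1 in MUT and 0 to 2 for the average, the calls being made without WT replicate 1.

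The members' median log2 fold change in KO against WT was 0.17 with age as a term, 0.10 with striatal level as a term and 0.15 in animals under 310 days. In MUT against WT it was 0.13, 0.075 and 0.099 under these settings, and for the average 0.13, 0.084 and 0.13. For labelled female over male it was 0.088 with age and 0.035 under 310 days. Leaving out 1 library gave 0.0040 to 0.080 in KO, -0.030 to 0.056 in MUT, -0.023 to 0.061 for the average, -0.032 to -0.0034 for MUT against KO and -0.034 to 0.035 for labelled sex. The causes were not tested.

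Over all genes, calls in KO against WT numbered 75, but 647 with DESeq2, 294 with no sex term, 2 with age, 1 with striatal level, 15 with a length trend removed, 3 with only the 2 groups compared, 11 under 310 days and 2 without the 3 libraries high in choroid plexus markers. For the average they numbered 23, but 7 with library size alone, 8 with CPM above 1 in 4 libraries, 522 with DESeq2, 550 with no sex term, 3 with age, 8 with striatal level, 14 with the length trend removed, 6 under 310 days and 5 without the choroid-high libraries. In MUT against WT they numbered 2, but 52 with DESeq2 and 6 with no sex term. In MUT against KO they numbered 1, but 15 with DESeq2, 2 with age, 39 with only the 2 groups and 37 under 310 days. For labelled sex they numbered 8, but 21 with DESeq2. Leaving out 1 library gave 1 to 1620 in KO, 2 to 1030 in MUT, 2 to 1686 for the average, 1 to 18 for MUT against KO and 6 to 8 for labelled sex, with the highest count of the first 3 without WT replicate 1.

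With the replicate number as a block, calls over all genes numbered 2 in KO against WT and 3 for the average, and 0 of the 34 genes were called. The numbers share no stated source: the correlation of deviations over 12 same-numbered pairs ran from -0.377 to 0.289, with 1 above 0.1. EdgeR without robust estimation of the spread was chosen after seeing the data. The 95% intervals of the 34 genes had a median half-width of 0.13 on the log2 scale in KO against WT, which limits the size of change that could be seen.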
